A study of Mus musculus with 12 samples.

Results

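Fibroblasts fill the spaces of connective tissue with a matrix of fibrillar collagens, small proteoglycans and adhesive glycoproteins, and their activated form adds a contractile smooth muscle actin. Mouse embryonic stem (ES) cells are often grown on a layer of fibroblast feeder cells, whose RNA can be carried into a culture, while the ES cells themselves also make fibronectin and, as they leave the pluripotent state, intermediate filaments and actins that are shared with mesenchyme. The 10 genes described here were chosen by name for this reason. Col1a1 and Col1a2 encode the chains of type I collagen, and Col3a1 the chain of type III collagen. Dcn (decorin) and Lum (lumican) encode small leucine-rich proteoglycans that bind collagen fibrils, and Postn encodes periostin, a matricellular protein. Thy1 encodes a cell-surface glycoprotein used as a fibroblast marker, which other cell types carry as well. Fn1 encodes fibronectin, Vim the intermediate filament protein vimentin, and Acta2 smooth muscle α-actin. All 10 were found among the 24627 genes of the count files. The first 7 are called fibroblast marker genes below, although none is exclusive to fibroblasts, and Fn1, Vim and Acta2 are the 3 that ES cells also express.

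The counts came from RNA-seq of total RNA from male (XY) J1 mouse ES cells carrying a doxycycline (DOX)-inducible Xist on their single X chromosome, collected at day 2 of differentiation. The 3 lines were Xist-TetOP FL, with the full-length transcript, Xist-TetOP ΔA, without the A repeat, and Xist-TetOP ΔB+C, without the B and C repeats. Each line was grown with 1.5 µg/ml DOX or without it (noDOX), with 2 replicates in each of the 6 groups and 12 libraries in all. The ΔB+C line is 1 clone edited from FL, whereas ΔA is a line made earlier and separately, and the methods describe all cells as kept without feeders. The study describes the replicates as biological duplicates, while the labels name no culture for each, so that p-values measure the spread between these libraries.

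The libraries held 31337490 to 41240470 counts, so that 3 counts, taken as the smallest detectable number, correspond to 0.0727 to 0.0957 CPM (counts scaled to a library total of 1e+06). Xist lay at 2.44 to 8.38 CPM in the 6 noDOX libraries and at 557 to 1830 CPM in the 6 DOX libraries, without overlap. The 12 pluripotency genes listed for comparison, all of them expressed, summed to 5126 to 6907 CPM, and Pou5f1, the gene for the pluripotency factor Oct4, lay at 1174 to 1770 CPM. The ΔB+C DOX replicate 2 library was made from 100 ng of RNA by a low-input method and the others from 1 µg. Replicates 1 and 2 of a group differed by more than counting noise in every group. Over the tested autosomal genes these differences correlated in all 15 pairs of groups (r from 0.399 to 0.82), although single genes differed in direction between groups.

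Short stretches of sequence in front of the start are shown for 3 of the genes, as a description of sequence only. The pattern printed for Acta2 differs from that printed for Vim and Col1a2, so that the printed stretches do not compare the genes. Any part of these patterns in the levels of the genes was not tested. RefSeq promoter sequences of build GRCm38.p6 (mm10) were found for Acta2, Vim, Col1a2, Col3a1 and Postn, and not for Col1a1, Thy1, Dcn, Lum and Fn1. In the 250 bases before the RefSeq start, both strands were searched for CCAAT, the letters bound by the factor NF-Y, and for the CArG-like box, meaning CC and GG separated by 6 letters of which at least 5 are A or T, the kind of element that serum response factor binds in genes of the contractile apparatus. In Acta2, on the minus strand, boxes in capitals began 84 and 34 bases before the start, at chr19:34255438-34255467 and chr19:34255388-34255417.
Acta2 box 1: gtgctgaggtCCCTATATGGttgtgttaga
Acta2 box 2: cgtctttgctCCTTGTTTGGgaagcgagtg
In Vim, on the plus strand, the capitals mark CCAAT and its reverse complement, 196 and 94 bases before the start, at chr2:13574103-13574132 and chr2:13574205-13574234.
Vim site 1: ggcctagcacttCCAATtagtaacaggact
Vim site 2: ttccgggtccccATTGGctggctcgctcgg
In Col1a2, on the plus strand, CCAAT began 109 bases before the start, at chr6:4505497-4505526.
Col1a2 site: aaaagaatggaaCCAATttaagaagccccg
Col1a2 also held 1 CArG-like box in this window, which is not printed, and Vim 0. Acta2 held 0 CCAAT, and Col3a1 and Postn held neither pattern. All printed stretches lie inside an exon of a GENCODE transcript of the same gene that begins further upstream. A CArG-like box was present in 8.59% of the 32851 RefSeq promoter windows of this length and CCAAT in 33.8%. A box that contains CCAAT was counted under both. These matches describe the sequence and do not show that a factor was bound.

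Per length of exon, Fn1 was the most abundant of the 10 genes, with a mean of 51 CPM per kb over the 12 libraries, above 95.9% of the 24040 genes whose exon length was known. Vim followed with 28.8 CPM per kb, above 92.2% of genes, and Acta2 with 6.74 CPM per kb, above 75.8%. These are the levels of genes that the pluripotent culture itself can express. Thy1 (2.5 CPM per kb) and Col1a1 (2.39 CPM per kb) stood at nearly the same level, above 63.1% and 62.7% of genes. Col1a2, whose protein joins that of Col1a1 in the type I collagen molecule, had a mean of only 0.318 CPM per kb, and Dcn 0.157, Col3a1 0.0857, Lum 0.0126 and Postn 0.00671. The neighbours Thy1 and Col1a1 in this order did not differ beyond their spread, since Col1a1 ranged from 0.333 to 5.77 CPM per kb over the libraries and Thy1 from 1.69 to 3.45. The ranges of Lum and Postn, which both included 0, overlapped as well.

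Of the fibrillar collagens, Col1a1 (chromosome 11, 94936224 to 94953042) had a 17.3-fold range over the libraries, the widest among those of the 10 genes with more than 3 counts in every library. In FL it read 37.9 and 5.58 CPM in replicates 1 and 2 without DOX and 37.2 and 7.7 CPM with DOX. In ΔA it read 6.58 and 3.31 CPM without DOX and 3.29 and 2.19 CPM with DOX, and in ΔB+C 26 and 10.7 CPM without DOX and 23.7 and 24.3 CPM with DOX. The 4 ΔA libraries held 4 of the 5 lowest values, and FL spanned low and high values within each treatment. Col1a2 (chromosome 6, 4504814 to 4541544) ranged only 2.79-fold. It read 5.12, 3.17, 4.43 and 3.48 CPM in FL (noDOX replicates 1 and 2, then DOX replicates 1 and 2), 2.53, 3.69, 2.69 and 2.22 CPM in ΔA, and 4.87, 3.78, 6.18 and 5.2 CPM in ΔB+C. Every ΔB+C library lay above every ΔA library, by a narrow gap between 3.69 and 3.78 CPM.

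The chains of type I collagen therefore did not keep a fixed proportion. The ratio of Col1a1 to Col1a2 counts lay between 0.898 and 8.41, a 9.37-fold range with a median of 2.71. It was 7.41 and 1.76 in replicates 1 and 2 of FL noDOX and 8.41 and 2.21 in FL DOX. In ΔA it was 2.6 and 0.898 without DOX and 1.22 and 0.986 with DOX, and in ΔB+C 5.33 and 2.82 without DOX and 3.83 and 4.67 with DOX. The ratio of Col1a1 to Thy1 ranged 10.9-fold, from 0.431 to 4.68. By comparison Fn1 to Vim ranged 2.29-fold, from 2.89 to 6.63. RNA from fewer cells of a type and less RNA per cell cannot be told apart in such bulk libraries.

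Col3a1 (chromosome 1, 45311538 to 45349706) reached 1 CPM in 4 of the 12 libraries and did not pass the filter on low counts. Its values were 1.12 and 0.224 CPM in FL noDOX, 1.69 and 0.55 in FL DOX, 0.589 and 0.188 in ΔA noDOX, 0.371 and 0.364 in ΔA DOX, 0.666 and 0.524 in ΔB+C noDOX, and 2.18 and 1.63 in ΔB+C DOX. The libraries at or above 1 CPM were replicate 1 of both FL groups and both replicates of ΔB+C DOX. In counts these values were 6 to 85 read pairs.

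Lum and Postn were near the limit of detection. Lum (chromosome 10, 97565128 to 97572703) had 14 counts in all libraries together, at most 3 in any, and was at 0 in 4 libraries. Postn (chromosome 3, 54361109 to 54391037) had 24 counts, 11 of them in FL DOX replicate 1 (0.321 CPM) and 6 in ΔB+C DOX replicate 2 (0.191 CPM), and was also at 0 in 4 libraries. A count of 0 allows up to 0.0785 to 0.0911 CPM in the Lum libraries at 0 and up to 0.0737 to 0.0911 CPM in the Postn libraries at 0, by counting error only. Neither gene passed the filter.

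Dcn (chromosome 10, 97479609 to 97518143), next to Lum in the genome, was low but present in every library, with 11 to 57 counts. It read 1.07, 0.813, 1.52 and 0.811 CPM in FL, 0.516, 0.406, 0.642 and 0.334 CPM in ΔA, and 1.33, 1.11, 1.46 and 1.02 CPM in ΔB+C, in the order used for Col1a2. All 4 ΔA libraries lay below all libraries of the other lines. Dcn reached 1 CPM in exactly the 6 libraries that the filter on low counts requires, none of them from ΔA, so that it was tested only through the lines in which it was high. Its calls between ΔA and the other lines are therefore given as values below and are not counted with those of the other 6 tested genes.

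Thy1 (chromosome 9, 44043384 to 44048579) had the narrowest range of the fibroblast marker genes, 2.04-fold. It read 8.66, 10.3, 7.96 and 9.06 CPM in FL, 7.07, 5.28, 6.47 and 5.07 CPM in ΔA, and 6.82, 7.91, 6.62 and 8.71 CPM in ΔB+C. FL lay above ΔA in all 4 libraries, and ΔB+C overlapped both.

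**Figure D1:**
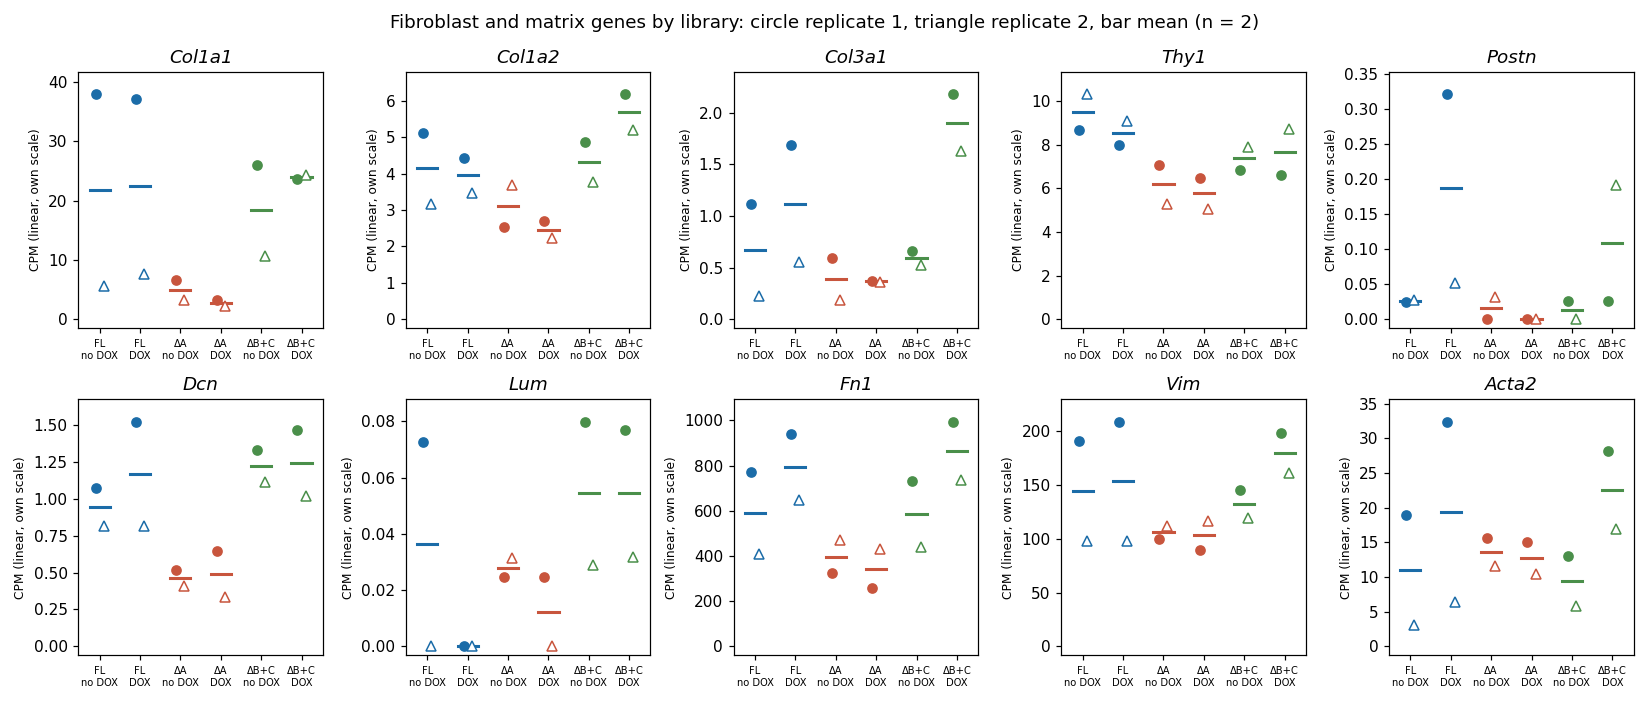
CPM of each of the 10 genes in the 12 libraries, on a linear scale of its own per gene. Circles are replicate 1, triangles replicate 2 and bars the mean of the 2 replicates. Col1a1 and Acta2 in FL show the widest gaps between replicates (37.9 against 5.58 CPM and 19 against 3.03 CPM without DOX), and ΔA has the lowest Dcn values.

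Fn1 (chromosome 1, 71585520 to 71653200, minus strand) read 773, 411, 938 and 649 CPM in FL, 323, 469, 258 and 432 CPM in ΔA, and 730, 441, 995 and 738 CPM in ΔB+C. The highest ΔA value was above the lowest FL and ΔB+C values, so that the lines overlapped. The exons of Fn1 share 292 bases with Apol7d, an antisense gene also present in the files, and without a stated strand setting the reads of both cannot be told apart there. Vim (chromosome 2, 13573927 to 13582826) read 191, 98.2, 209 and 98 CPM in FL, 100, 112, 89.3 and 117 CPM in ΔA, and 145, 119, 198 and 161 CPM in ΔB+C. In FL its replicate 2 values were as low as those of ΔA.

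Acta2 (chromosome 19, 34241090 to 34255590, minus strand) ranged 10.7-fold. It read 19, 3.03, 32.4 and 6.47 CPM in FL, 15.6, 11.6, 15.1 and 10.5 CPM in ΔA, and 13, 5.82, 28.2 and 16.9 CPM in ΔB+C. FL contained both the lowest and the highest value, and ΔA lay between them.

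To ask how much fibroblast-like RNA the libraries held, the 7 fibroblast marker genes were summed. The sum was 54 and 20.1 CPM in replicates 1 and 2 of FL noDOX and 53.2 and 21.6 CPM in FL DOX. It was 17.3 and 12.9 CPM in ΔA noDOX and 13.5 and 10.2 CPM in ΔA DOX. In ΔB+C it was 39.8 and 24 CPM without DOX and 40.2 and 41.1 CPM with DOX. As a share of all counts these sums were 0.00102% to 0.0054%, with 95% Wilson intervals of 9.14 to 11.3 CPM at the lowest and 51.8 to 56.2 CPM at the highest library, for counting error only. All 4 ΔA libraries lay below all FL and ΔB+C libraries, but without Thy1 the highest ΔA sum passed the lowest FL sum (10.2 against 9.82 CPM). The summed fibroblast identity genes, given below, did not set ΔA apart either.

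Col1a1 carried much of the spread of the sum. It made up 21.5% to 70.2% of the sum, and without it the sum ranged from 7.98 to 16.8 CPM, 2.11-fold in place of 5.29-fold. The remainder was 7.98 to 10.7 CPM in ΔA, 14 to 16.1 CPM in FL and 13.4 to 16.8 CPM in ΔB+C. In this remainder the gap between replicates of FL was narrow and ΔA was the lowest. Thy1 was its largest part, at 7.96 to 10.3 CPM in FL and 5.07 to 7.07 CPM in ΔA. In both FL groups Thy1 was higher in replicate 2, whereas Col1a2, Col3a1 and Dcn were lower. A sum without both Col1a1 and Thy1 was not taken. Without Thy1 the range was 5.1 to 45.3 CPM, or 8.88-fold, and the ΔA libraries, at 5.1 to 10.2 CPM, overlapped the lowest FL library at 9.82 CPM. Fn1, Vim and Acta2 together summed to 363 to 1222 CPM. No fibroblast library was analysed here, so that the sums could not be turned into a share of fibroblast cells.

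**Figure D2:**
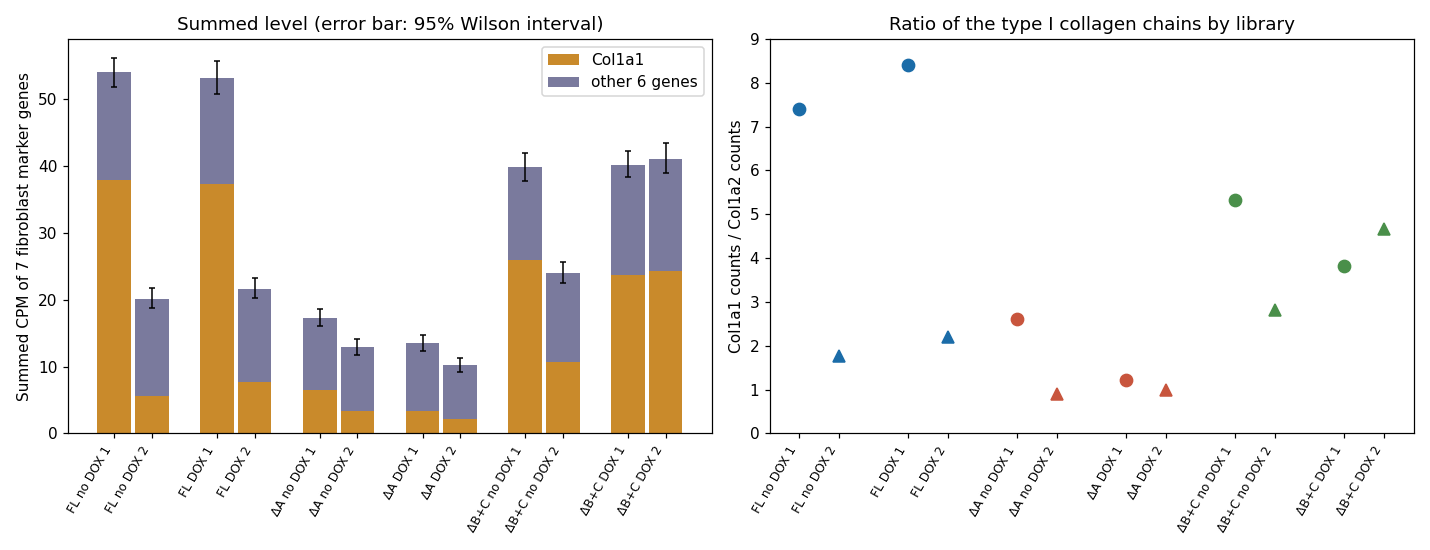
Left, summed CPM of the 7 fibroblast marker genes in each of the 12 libraries, with the part of Col1a1 coloured apart and error bars for the 95% Wilson interval of the sum. Right, Col1a1 counts over Col1a2 counts (circle, replicate 1; triangle, replicate 2), from 0.898 in a ΔA library to 8.41 in an FL library.

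Other genes listed as fibroblast identity genes were mostly low. Of 15 fibroblast identity genes, 4 passed the filter, namely Pdgfra, Pdgfrb, Twist1 and Twist2, and the whole list summed to 14.7 to 24 CPM, with ΔA at 16.7 to 20.2 CPM inside the range of FL and ΔB+C. Twist1, a transcription factor of mesenchyme, was the highest at 5.92 to 14.1 CPM. Dpt, the gene for the dermal matrix protein dermatopontin, was at 0 in all 12 libraries, and Fap, the fibroblast activation protein gene, was at 0 in 8 libraries and at most 0.0523 CPM. Prrx1, a transcription factor of limb and connective tissue mesenchyme, reached at most 0.321 CPM. S100a4 reached at most 0.994 CPM and was at 0 in 2 libraries. The listed interstitial matrix genes, mostly Sparc, summed to 384 to 428 CPM in ΔA and 504 to 824 CPM in FL and ΔB+C. The collagen processing genes summed to 684 to 707 CPM in ΔA and 772 to 904 CPM in the others. In the contractile, basement membrane and adhesion sums ΔA overlapped the other lines. Of the endothelial and blood list the hemoglobin genes Hbb-bt and Hba-a1 were at 0 in all libraries, and the sum over that list, 10.1 to 27.7 CPM, came mostly from the receptor gene Tek at 8.58 to 24.1 CPM.

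The first comparison asked whether induction of Xist moved these genes. Every gene that reached 1 CPM in 6 or more libraries was tested with edgeR, with p-values adjusted over all 13191 of them and a threshold of 0.05, and 7 of the 10 genes passed that filter. None of the 7 was called in FL, where 1.24% of all tested genes were, in ΔA (0.00758%) or in ΔB+C (2.94%). DESeq2 and limma-voom also called 0. An unadjusted p under 0.05 was reached by 1780 tested genes in FL, 149 in ΔA and 2480 in ΔB+C. None of the 7 reached it in any line. Their median log2 fold change was 0.08 in FL, -0.06 in ΔA and 0.36 in ΔB+C, against -0.01, 0.00014 and -0.003 over all tested genes.

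Acta2 gave the largest estimates in FL and ΔB+C. DOX against noDOX was 0.81 ± 0.86 on the log2 scale (SE, edgeR adjusted p = 0.733) in FL, -0.05 ± 0.86 (adjusted p = 1) in ΔA and 1.23 ± 0.87 (adjusted p = 0.493) in ΔB+C. Within pairs of equal replicate number the change was 0.75 and 0.98 in FL, -0.01 and -0.09 in ΔA, and 1.07 and 1.42 in ΔB+C. Without the FL DOX replicate 1 library the FL estimate turned to -0.78. Fn1 gave 0.42 ± 0.38 in FL (adjusted p = 0.691), -0.16 ± 0.38 in ΔA (adjusted p = 1) and 0.54 ± 0.39 in ΔB+C (adjusted p = 0.504). In ΔA the largest estimate was that of Col1a1, -0.82 ± 0.96 (adjusted p = 1), with -0.88 and -0.46 within pairs and between -0.23 and -1.22 on leaving out 1 library. Col1a2 was 0.36 ± 0.29 (adjusted p = 0.544) in ΔB+C, with 0.29 and 0.37 within pairs.

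The response was also compared between lines. None of the 7 genes was called for ΔA against FL or for ΔB+C against FL, where 0% of the tested genes passed the threshold in each case, with 981 and 106 genes at an unadjusted p under 0.05. None of the 7 was among those genes. For ΔB+C against ΔA 0.205% of tested genes were called and again none of the 7. The difference of the Acta2 response was -0.85 ± 1.21 for ΔA minus FL (adjusted p = 0.93) and 1.28 ± 1.22 for ΔB+C minus ΔA (adjusted p = 0.753), with errors nearly as large as the estimates or larger. For Fn1 these values were -0.58 ± 0.54 (adjusted p = 0.896) and 0.69 ± 0.54 (adjusted p = 0.694). DESeq2 and limma-voom called none of the 7 in these 3 comparisons either.

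The comparison of the lines without DOX showed where they differed before induction. For ΔA against FL, 9.84% of tested genes were called and 0 of the 7, by edgeR, DESeq2 and limma-voom. An unadjusted p under 0.05 was found for 3 of the 7, Dcn among them, and for 3416 of the 13191 tested genes. Col1a1 gave -2.15 ± 0.94 on the log2 scale (adjusted p = 0.186), Dcn gave -1.04 ± 0.43 (adjusted p = 0.163) and Thy1 -0.64 ± 0.22 (adjusted p = 0.107). Vim gave -0.46 ± 0.37, Fn1 -0.60 ± 0.39, Col1a2 -0.44 ± 0.29 and Acta2 0.28 ± 0.86, with adjusted p between 0.366 and 0.87. The FL noDOX replicate 1 library carried several of these estimates. Without it Col1a1 gave -0.18, Fn1 -0.07, Col1a2 -0.05 and Vim 0.09, while Thy1 gave -0.76.

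With the replicate number as a block in the same fit, Thy1 was called lower in ΔA (-0.62, adjusted p = 0.0308), 1 of the 6 genes other than Dcn. Of all tested genes 33.4% were called in either direction and 17.2% lower. Dcn gave -1.05 (adjusted p = 0.0235). When the noDOX and DOX libraries of each line were averaged, 3 of these 6 were called lower in ΔA, against 25.2% of all tested genes called in either direction. They were Col1a1 (-2.58, adjusted p = 0.0231), Thy1 (-0.59, adjusted p = 0.0248) and Fn1 (-0.89, adjusted p = 0.0428), and Dcn gave -1.12 (adjusted p = 0.0245). Over the 4 libraries of each line without regard to treatment, 1 of these 6, Thy1, was lower in every ΔA library than in every FL library, and 14.3% of all tested genes were.

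For ΔB+C against ΔA without DOX, 6.69% of tested genes were called and 0 of the 7, by edgeR, DESeq2 and limma-voom. An unadjusted p under 0.05 was found for 1 of the 7 and for 2984 of the 13191 tested genes. That gene was Dcn, at 1.41 ± 0.42 (adjusted p = 0.0823), which was tested only through the lines in which it was high. The Col1a1 estimate was 1.90 ± 0.93 (adjusted p = 0.264), that of Fn1 0.59 ± 0.39 (adjusted p = 0.41) and that of Col1a2 0.51 ± 0.29 (adjusted p = 0.336). With the replicate block 0 of the 6 genes other than Dcn were called, against 27.9% of all tested genes, and Dcn gave 1.43 (adjusted p = 0.0054). With the treatments averaged 3 of these 6 were called higher in ΔB+C, against 25.5% of all tested genes called in either direction. They were Col1a2 (0.84, adjusted p = 0.0182), Col1a1 (2.49, adjusted p = 0.0267) and Fn1 (0.93, adjusted p = 0.0356), and Dcn gave 1.35 (adjusted p = 0.0112). Col1a1, Col1a2 and Vim, 3 of these 6, were higher in every ΔB+C library than in every ΔA library, and 13.3% of all tested genes were. This comparison shares the ΔA libraries with the preceding one.

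For ΔB+C against FL without DOX, 0.0227% of tested genes were called and 0 of the 7, by each of the 3 tools and with the block. None of the 7 had an unadjusted p under 0.05, which 771 of all tested genes had. Thy1 gave -0.36 ± 0.22 (adjusted p = 0.944) and Dcn 0.38 ± 0.39 (adjusted p = 1.0).

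**Figure D3:**
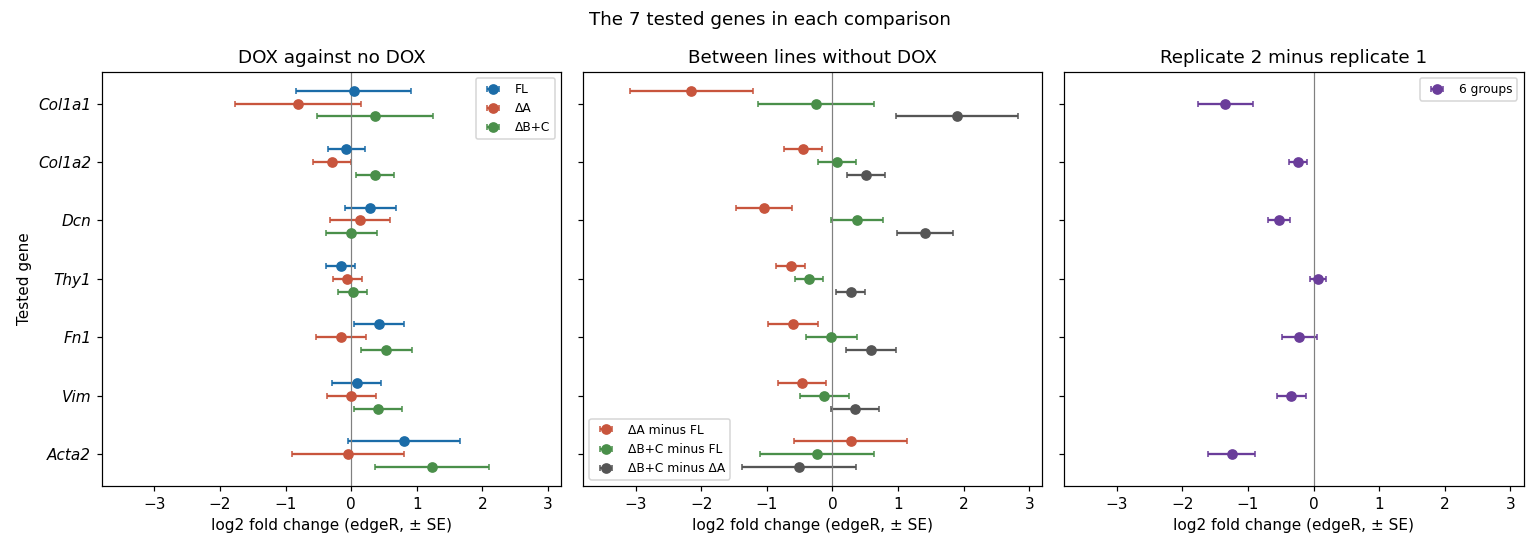
log2 fold changes of the 7 tested genes from edgeR, with bars of 1 SE on either side: DOX against noDOX in each line, the lines against each other without DOX, and replicate 2 against replicate 1 over the 6 groups. In the plot between lines all ΔA minus FL points except that of Acta2 lie below 0 by more than 1 SE. Those of Col1a1, Dcn and Thy1 are at -2.15, -1.04 and -0.64, and none of the points is called in this fit.

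The next comparison set the replicate numbers against each other. With the 6 group means kept in the fit, 3 of the 7 genes were called lower in replicate 2, where 46.3% of all tested genes were called in either direction and 23.5% were called lower. Col1a1 fell by 1.35 on the log2 scale from replicate 1 to 2 (SE 0.42, edgeR adjusted p = 0.0425) and was lower in 5 of the 6 groups. Acta2 fell by 1.24 (SE 0.36, adjusted p = 0.0324) and Dcn fell by 0.53 (SE 0.17, adjusted p = 0.0224), both lower in 6 of 6 groups. Dcn passed the filter with more replicate 1 than replicate 2 libraries at 1 CPM, both FL replicate 2 libraries being below it (0.813 and 0.811 CPM). Its place among the 3 thus leans in part on the replicate in which it was higher. The steps of Col1a1 and Acta2 differed by line. They were -2.66 and -2.47 in FL noDOX and -2.20 and -2.24 in FL DOX, but between 0.05 and -1.21 in the 4 groups of the other lines, on the scale of log2(TMM-scaled CPM + 0.5). Whether the steps differ between lines was not tested.

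These calls rested on few libraries. With a mean kept for each group, leaving out either replicate takes the whole group out of the replicate comparison. The 2 fits of a group are therefore the same check, and the low-input library was not checked alone. Without FL DOX the steps were -1.12 for Col1a1, -1.02 for Acta2 and -0.44 for Dcn, and the calls ended. Without ΔB+C noDOX they were -1.37, -1.27 and -0.61 in the same order, and the Dcn call alone was kept. Without ΔB+C DOX they were -1.69, -1.37 and -0.54, and the Col1a1 call alone was kept. The Col1a1 call was also lost without FL noDOX (-1.03), ΔA noDOX (-1.40) or ΔA DOX (-1.44). DESeq2 called Col1a1 and Acta2 but not Dcn (adjusted p = 0.122), and limma-voom called all 3. Without the filter on low counts, Col1a1 (adjusted p = 0.0783) and Acta2 (adjusted p = 0.0611) were not called, Dcn was (adjusted p = 0.031), and Col3a1, which only that fit tested, was called lower in replicate 2 (-1.0, adjusted p = 0.00779).

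Thy1 gave 0.07 ± 0.11 (adjusted p = 0.652) for the step. Col1a2 gave -0.23 ± 0.14 (adjusted p = 0.189), and was called lower only without the ΔA noDOX group (-0.37). Fn1 (-0.22 ± 0.26, adjusted p = 0.535) and Vim (-0.34 ± 0.23, adjusted p = 0.267) were not called. Their replicate 2 values lay below replicate 1 in the 4 FL and ΔB+C groups and above it in both ΔA groups. The Fn1 steps were -0.92 and -0.53 in FL, 0.53 and 0.76 in ΔA, and -0.69 and -0.41 in ΔB+C, without and with DOX.

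**Figure D4:**
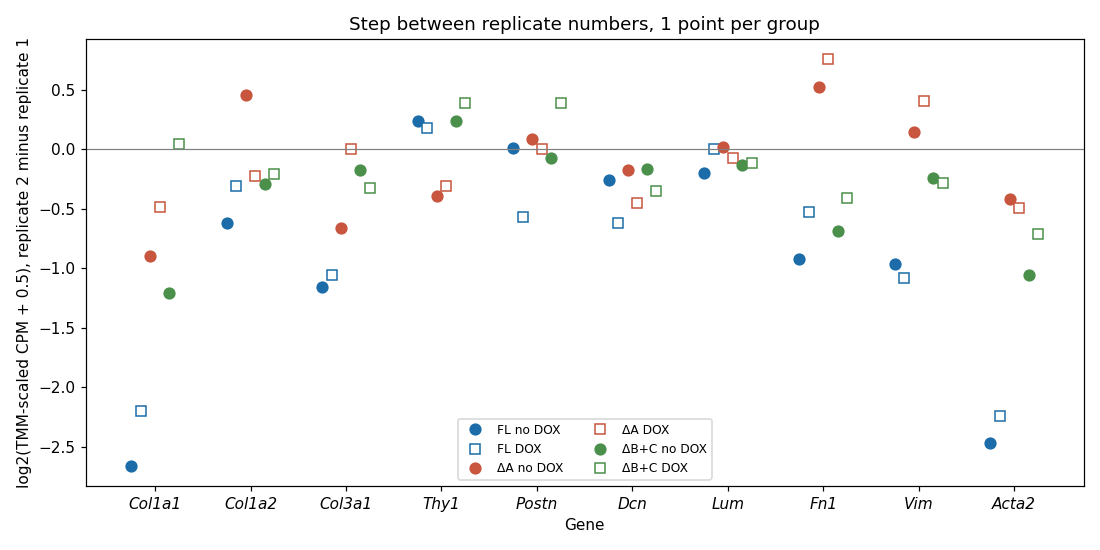
Difference between replicate 2 and replicate 1 of each of the 10 genes in each of the 6 groups, on the scale of log2(TMM-scaled CPM + 0.5); filled circles are noDOX, open squares DOX, and colours the lines. FL lies at -2.20 or lower for Col1a1 and Acta2, and the ΔA points of Fn1 and Vim lie above 0 while the other groups lie below it.

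The counts of related lists between replicate numbers are to be read against the 46.3% of all tested genes called and the 23.5% called lower. Of the 8 tested genes of the contractile list, 7 were lower in replicate 2 and 0 higher, with a median of -0.51. Among them were Cnn1, the calponin gene, which fell by 0.60 (adjusted p = 7.075e-05), and the tropomyosin genes Tpm2, which fell by 0.42 (adjusted p = 0.000828), and Tpm1, which fell by 0.99 (adjusted p = 0.00097). Of 14 tested genes of the interstitial matrix, 6 were lower and 2 higher, among them Lox, the collagen cross-linking oxidase, which fell by 1.15 (adjusted p = 9.814e-05), Col5a2, a chain of type V collagen, which fell by 0.68 (adjusted p = 0.000243), and Fbln1, the fibulin gene, which was higher by 0.53 (adjusted p = 2.523e-05). Of the 10 fibronectin receptor and adhesion genes, 5 were lower and 2 higher, with vinculin (Vcl) at -0.43, zyxin (Zyx) at -0.32 and the integrin subunit Itgb1, measured at 223 to 437 CPM, at -0.48. Of 12 collagen processing genes 3 were lower and 3 higher, among them the hydroxylase genes P3h1 at 0.31 and Plod2 at -0.37, and the procollagen proteinase gene Bmp1 at -1.03. Of 9 basement membrane genes 4 were lower and 0 higher, among them the type IV collagen genes Col4a2 at -0.57 and Col4a1 at -0.44 and the laminin gene Lamb1 at -0.28. Of the 4 tested fibroblast identity genes Twist1 alone was called, and fell by 0.26 (adjusted p = 0.0299).

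Lists of other cell states were counted against the same shares. Of the 12 pluripotency genes, 7 were higher and 3 lower in replicate 2, with Dppa5a at 0.65, Sox2 at 0.59 and Cdh1, the E-cadherin gene, at -0.28. Of 8 tested mesendoderm and EMT genes, 5 were lower and 1 higher, with Mixl1, a primitive streak factor, at -1.39, Zeb1 at 1.03 and Cdh2, the N-cadherin gene, at -0.41. Of 8 tested primitive endoderm genes Foxa2 was higher (0.83) and Dab2 lower (-0.29), and of 2 tested endothelial genes 0 were called. Neither endothelial gene had an unadjusted p under 0.05, which 7100 of all tested genes had. Leaving out libraries was checked only for the 24 calls between replicate numbers that are named here, at most 3 per list with the smallest p. Of these, 20 were kept whichever library was left out. Those of Twist1, Col4a1, Dab2 and Foxa2 were lost on leaving out 6 or 8 of the 12 libraries in turn. Here too, leaving out either replicate of a group was the same check, by group and not by library. The calls counted but not named were not checked, so that these numbers do not describe them. The part of these cell states in the replicate step of Col1a1, Acta2 and Dcn was not tested.

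Between lines and treatments the counts of the same lists stand beside the share of all tested genes called in either direction. It was 9.84% for ΔA against FL and 6.69% for ΔB+C against ΔA. Between ΔA and FL without DOX, Mmp2, a gelatinase gene, was called lower in ΔA (-0.52, adjusted p = 0.0293), 1 of 14 interstitial matrix genes. The prolyl hydroxylase genes P4ha2 (-0.51, adjusted p = 0.037) and P4hb (-0.37, adjusted p = 0.0456) were lower too, 2 of 12 collagen processing genes. The mesendoderm genes Fgf8 (-3.72), Eomes (-1.28) and Mixl1 (-3.54) were called lower in ΔA, 3 of 8, and the pluripotency gene Dppa4 higher (0.78), 1 of 12. Between ΔB+C and ΔA, Mmp2 (0.67, adjusted p = 0.0162) and Sparc (0.98, adjusted p = 0.0423), the latter encoding a collagen-binding glycoprotein, were called higher in ΔB+C, and Col4a1 of the basement membrane was too (1.32, adjusted p = 0.0495). With DOX, Eomes was lower in FL (-1.59, adjusted p = 0.0427) and ΔB+C (-1.38, adjusted p = 0.0431), and Tek higher in ΔB+C (0.99, adjusted p = 0.027). Each of these 13 calls was lost on leaving out 3 to 10 of the 12 libraries in turn, with no change of sign. In these comparisons no contractile, fibroblast identity or adhesion gene was called by edgeR without the block. The part of these cell states in the levels of the 10 genes was not tested.

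The genes most like each of the 7 in their log2 CPM over the 12 libraries were named by Pearson's r, as a description of libraries that share lines, treatments and replicate numbers. Col1a1 was most like Axl, the gene for a receptor tyrosine kinase (r = 0.977), and Rhob (r = 0.969). Acta2 was most like Timp3, the gene for an inhibitor of matrix metalloproteinases (r = 0.963), and Actn1, the gene for α-actinin (r = 0.955). Dcn was most like Snhg6 (r = 0.966) and Fut9 (r = 0.961), and Thy1 like 2410004P03Rik (r = 0.935) and Ifi35 (r = 0.934). Fn1 was most like Pik3cb (r = 0.976) and B3gnt2 (r = 0.961), Vim like Gprc5a (r = 0.967) and Spsb1 (r = 0.958), and Col1a2 like Sprtn (r = 0.966) and Slc30a2 (r = 0.948). None of the 10 genes was among the 2 nearest of another.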

How the data were processed

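Per the labels and the study's methods, the authors mapped paired-end reads to mm10 with TopHat2 2.1.0 and counted read pairs over refFlat exons with featureCounts 1.5.1, without pairs split between chromosomes. Raw counts per gene and library were deposited, and the strand setting was not given in the sources used here. Groups were taken from the sample labels, also where a file name read otherwise.

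CPM were computed over library totals of 31337490 to 41240470 counts, and levels per length over merged exons of GENCODE vM21, found for 24040 of 24627 genes. The 13191 genes that reached 1 CPM in 6 or more libraries were tested with edgeR 4.0.16 (quasi-likelihood, robust, 6 group means, TMM factors from expressed autosomal genes) in R 4.3.3, with Benjamini-Hochberg adjustment at 0.05. The alternatives were DESeq2 1.42.0, limma-voom (limma 3.58.1), other scaling factors and filters, the compared groups alone, both treatments averaged, the replicate number as a block, and leaving out each library. The main fits for DOX, lines and responses held no replicate term. For the block and the replicate comparison alone, the replicate number was taken to pair libraries. Replicate 2 minus replicate 1 differences over 12721 autosomal genes correlated in all 15 pairs of groups (r from 0.399 to 0.82), and the main fits leave this out. Intervals and floors cover counting error only.

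The 10 genes and all lists were chosen with earlier results of these data known. All 10 genes are named in every comparison as levels or counts. From other lists, genes with an adjusted p under 0.05 are named, at most the 3 with the smallest p per list and comparison. Otherwise the 1 or 2 most abundant are given by level. The 2 genes nearest to each tested gene are named by Pearson's r of log2(CPM + 0.5). Genes at 0, Pdgfra, Prrx1, Fap and S100a4 were named after their values were seen. Figures were drawn with matplotlib.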

Additional observations from a re-analysis of the deposited data

How the results depend on the processing

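The count of the 7 tested genes called stayed at 0 for DOX in each line, for the differences of the DOX response and for ΔB+C against FL under every alternative run. For ΔA against FL it rose from 0 to 2 with the replicate block and to 4 with both treatments averaged. For ΔB+C against ΔA it rose from 0 to 1 with the block and to 4 with both treatments averaged. Dcn, tested only through the lines in which it was high, is in each of these counts. Without Dcn they were 1 and 3 for ΔA against FL, and 0 and 3 for ΔB+C against ΔA. In the same order, 33.4% and 25.2% of all tested genes were called for ΔA against FL. For ΔB+C against ΔA these shares were 27.9% and 25.5%. With the block the share of all tested genes called for DOX was 13.9% in FL and 21.9% in ΔB+C, in place of 1.24% and 2.94%, and for the response it was 3.31% for ΔA against FL and 9.32% for ΔB+C against ΔA, in place of 0% and 0.205%. The block changed no other call of the 10 genes. For replicate 2 against 1 the count of 3 became 2 with DESeq2, without a filter or with a filter of 5 CPM, and 0 to 3 when 1 library was left out. Leaving out 1 library takes its whole group out of the replicate comparison. The fold between the highest and lowest summed level was 5.29, 8.88 without Thy1 and 2.11 without Col1a1.

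Signs turned only for estimates of the 10 genes that passed no threshold. The Acta2 difference of ΔA against FL was 0.28 and became -0.15 with both treatments averaged. Leaving out 1 library at a time moved this difference between -0.50 and 2.15, that of Vim between -0.86 and 0.093, the DOX change of Acta2 between -0.78 and 2.67 in FL and between -0.33 and 0.19 in ΔA, that of Fn1 in ΔA between -0.58 and 0.17, the difference of the Acta2 response between ΔA and FL between -2.72 and 0.73, and the replicate step of Thy1 between -0.0016 and 0.16. The cause was not tested. With 2 libraries per group, and 11 to 57 counts for Dcn, small changes of these genes were not detectable.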
